A study of Mus musculus with 91 samples.

Results

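Cell cycle phase genes were followed over single cells of the mouse caudal lateral epiblast. The genes were chosen by name from textbook knowledge of the cycle, with earlier results of these data known. The set has 40 genes, out of 53379 in the count file and 18054 with reads in at least 3 cells. It holds 15 genes of DNA replication (the S list), 19 genes of G2 phase and mitosis (the G2/M list), 3 genes of the switch from G1 to S phase (Ccne1, Ccne2 and E2f1) and the 3 D cyclins. All 40 had reads in at least 3 cells, and 39 were detected in 50% of the cells or more. The exception was E2f1, with reads in 21 cells of each class defined below.

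The 91 cells came from wild type embryos of the outbred MF1 strain at the early head fold stage, around embryonic day 8.0. The caudal lateral epiblast, the tissue next to the node and the front of the primitive streak, was dissected free of most of the mesoderm under it, the pieces were pooled, and each sorted cell got its own well and a Smart-seq2 library. No embryo is named for any cell and there is no treatment, so that the cells form 1 sample: differences between classes of cells are given without p-values or standard errors, and intervals on shares cover counting error only. A cell was called epiblast-like where its level of Nkx1-2, a homeobox gene of the caudal epiblast, was above that of Aldh1a2, the retinoic acid enzyme of nascent paraxial mesoderm, and mesoderm-like otherwise.

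This rule gave 43 epiblast-like cells (47.3%, exact 95% binomial interval 36.7 to 58%) and 48 mesoderm-like cells. Levels are in CPM, the count of a gene per 1000000 counts of the cell. In the epiblast-like cells 8 of 8 epiblast markers and 1 of 8 mesoderm markers were detected in 50% of the cells or more, and in the mesoderm-like cells these numbers were 3 of 8 and 8 of 8. For 1 epiblast-like cell, the marker scores pointed to mesoderm. Node, endoderm, blood, lateral mesoderm and neural markers had a median summed level of 0 CPM in both classes, and surface ectoderm markers of 2.02 and 1.94 CPM, although 1 mesoderm-like cell reached 1711 CPM for 6 endoderm markers. Total counts ran from 709866 to 4439571 per cell.

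Cells that divide copy their DNA in S phase and separate it in mitosis, with gap phases before each. The genes of each step are switched on shortly before they are needed: E2F factors drive the replication genes at the G1 to S transition, while the DREAM and MuvB complexes hold back and then release the mitotic genes, acting at a short element called CHR that often lies close to CCAAT boxes bound by NF-Y. Cells of the epiblast at this stage are known to divide fast, with short gap phases.

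Letters of these elements occur in the promoters of many members, and 7 promoters that hold them were picked as examples. They were not picked by how their genes vary over cells. Promoter sequences came from a RefSeq table (build GRCm38.p6) with 300 bases per start site, 250 before it and 50 after. It held 33 windows for 31 of the 40 members. Kif20a, Aurkb, Ccne2, Gins2, Ccnd1, Ccnd2, Mcm4, Ccna2 and Tpx2 had none. Printed below are the 170 bases before and the 30 after the start, 5′ to 3′ on the strand of the gene. In the first 4, genes of the G2/M list, capitals mark CHR letters (TTTGAA or TTCGAA) and CCAAT on either strand, so that CCAAT on the other strand reads ATTGG and TTTGAA reads TTCAAA.
Top2a: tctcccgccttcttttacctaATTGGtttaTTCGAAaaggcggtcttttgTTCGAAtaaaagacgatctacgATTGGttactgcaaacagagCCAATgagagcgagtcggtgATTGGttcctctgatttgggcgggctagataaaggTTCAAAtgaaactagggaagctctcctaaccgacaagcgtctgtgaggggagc
Cdk1: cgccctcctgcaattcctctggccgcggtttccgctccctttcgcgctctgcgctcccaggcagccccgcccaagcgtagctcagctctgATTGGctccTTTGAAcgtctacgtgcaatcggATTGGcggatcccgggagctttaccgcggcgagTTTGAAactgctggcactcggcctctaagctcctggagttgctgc
Cdc20: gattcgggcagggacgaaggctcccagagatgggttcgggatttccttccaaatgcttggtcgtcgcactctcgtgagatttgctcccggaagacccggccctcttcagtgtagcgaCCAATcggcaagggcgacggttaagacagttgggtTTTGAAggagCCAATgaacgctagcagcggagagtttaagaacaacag
Ccnb2: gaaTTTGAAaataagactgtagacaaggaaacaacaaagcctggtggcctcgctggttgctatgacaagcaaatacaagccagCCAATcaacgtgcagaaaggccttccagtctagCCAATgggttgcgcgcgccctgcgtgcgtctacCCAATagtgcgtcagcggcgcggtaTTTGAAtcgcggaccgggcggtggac
Top2a encodes the topoisomerase that untangles chromosomes (chr11:99024160-99024359, minus strand). Cdk1 is the kinase that starts mitosis (chr10:69352883-69353082, minus strand). Cdc20 activates the anaphase-promoting complex (chr4:118437314-118437513, minus strand), and Ccnb2 is a B-type cyclin partner of Cdk1 (chr9:70421525-70421724, minus strand).

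In the next 3, genes of the S list, capitals mark E2F letters on either strand, which are TTCCCGC, also TTGGCGC, also TTCGCGC and also TTGCCGC.
Mcm5: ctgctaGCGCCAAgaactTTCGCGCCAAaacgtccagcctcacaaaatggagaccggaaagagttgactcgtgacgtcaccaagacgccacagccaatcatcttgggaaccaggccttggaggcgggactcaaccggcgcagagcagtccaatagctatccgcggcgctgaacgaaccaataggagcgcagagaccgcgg
Mcm6: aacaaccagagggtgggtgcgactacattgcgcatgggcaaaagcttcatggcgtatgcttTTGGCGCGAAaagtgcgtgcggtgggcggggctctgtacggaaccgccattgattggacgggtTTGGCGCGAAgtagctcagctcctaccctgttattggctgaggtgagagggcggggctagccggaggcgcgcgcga
Cdc6: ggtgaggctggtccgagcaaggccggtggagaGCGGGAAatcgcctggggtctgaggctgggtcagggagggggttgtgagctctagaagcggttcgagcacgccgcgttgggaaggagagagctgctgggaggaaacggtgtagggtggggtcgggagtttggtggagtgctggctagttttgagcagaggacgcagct
Mcm5 and Mcm6 encode subunits of the replicative helicase (chr8:75109339-75109538, plus strand, and chr1:128359676-128359875, minus strand), and Cdc6 loads that helicase on origins (chr11:98907981-98908180, plus strand). For Mcm5 and Mcm6, the bases after the start were not found in an annotated transcript of the gene, so that the window may sit upstream of the start in use.

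CHR letters occurred in 13 of 15 G2/M windows (86.7%), in 2 of 14 S windows (14.3%) and in 19.2% of all 32851 windows of the table. Those 13 windows also held CCAAT, a pairing found in 7.52% of all windows. In the G2/M windows the 20 CHR matches had a median position of -18.5 from the start site, and the 36 CCAAT matches one of -79. E2F letters occurred in 9 of 14 S windows (64.3%), in 4 of 15 G2/M windows (26.7%) and in 9.57% of all windows. CCAAT occurred in 15 of 15 G2/M and 10 of 14 S windows against 37.4% of all, and the GC box GGGCGG in 13 of 15 and 11 of 14 against 35.7%. These 2 motifs therefore did not separate the lists. CHR and CCAAT letters overlapped in 0 windows, and E2F and CCAAT letters in 2. The mean GC content was 57.2% in the G2/M windows, 59.6% in the S windows and 53.8% in all windows. A match is a description of the letters and not a bound site. Among the G2/M windows, those of Ccnb1 and Cenpe held no CHR letters. Among the S windows, the 5 of Mcm2, Pcna, Slbp, Tyms and Ung held no E2F letters.

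Replication genes were present in nearly every cell of both classes and were on the whole somewhat higher in epiblast-like cells. Of the 15, 9 had reads in all 91 cells. The list's median log2 ratio of mean CPM (epiblast-like over mesoderm-like, 1 CPM added) was 0.31, against 0.01 over all 18054 measured genes, and 13 of its 15 genes had the higher mean in epiblast-like cells, against 51.2% of all genes. No gene of the list was 2-fold different. Among all measured genes, 8.18% passed 2-fold toward epiblast-like and 9.55% toward mesoderm-like cells, and among the 7834 genes with a mean of at least 10 CPM in both classes, which include all 40 members, 3.24% and 4.74% did. 

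Rrm2, the small subunit of ribonucleotide reductase, which makes deoxynucleotides, had the highest level per exon length of the 40 genes (363 RPKM over all cells, which is CPM per kilobase of exon). Its CPM ran from 99.7 through a median of 921 to 2785 in epiblast-like cells, and from 128 through 935.5 to 1847 in mesoderm-like cells. The ranges overlapped almost fully, with means of 1081 ± 539 (SD, n = 43 cells) and 937 ± 485 (SD, n = 48 cells). Pcna, the sliding clamp of DNA polymerase, had equal means within the spread, 550 ± 229 and 538 ± 299 CPM (SD). Its values ran from 174 to 1092 and from 69.3 to 1410 CPM, so that both extremes lay in mesoderm-like cells.

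The helicase genes Mcm2 to Mcm7 had the higher mean in epiblast-like cells in 6 of 6 cases, with log2 ratios from 0.13 (Mcm3) to 0.50 (Mcm6). Mcm6 ran from 260 through 580 to 1326 CPM in epiblast-like cells and from 15.1 through 456 to 1083 CPM in mesoderm-like cells. Mcm4 was at 116 to 1458 CPM in epiblast-like cells (median 558), and at 0 to 1265 CPM in mesoderm-like cells (median 367). For both genes the lowest values belonged to mesoderm-like cells, while the upper ends were close. Mcm7 shares exon sequence with Ap4m1, Cops6 and 2 microRNA genes, and the strand setting of the counting is not given, so that its reads may include theirs.

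The S genes with the largest ratios were Ung, which removes uracil from DNA (log2 ratio 0.70), Cdt1, the licensing factor (0.68), and Cdc6 (0.60). They were also those most often without reads: Cdc6 had none in 5 epiblast-like and 14 mesoderm-like cells, Cdt1 in 10 and 15, and Ung in 0 and 6. Tyms, thymidylate synthase (log2 ratio -0.48), and Rrm1, the large subunit of ribonucleotide reductase (-0.22), had the higher mean in mesoderm-like cells. Tyms ran from 37.8 through 206 to 471.5 CPM in epiblast-like and from 0 through 239.5 to 943 CPM in mesoderm-like cells, so that the ranges overlapped.

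Genes of G2 phase and mitosis did not lean to one class by their means. In the list of 19, 10 had the higher mean in epiblast-like and 9 in mesoderm-like cells, the median log2 ratio was 0.04, and 0 were 2-fold different in either direction. The extremes of the 40 genes were both here. Kif20a, a kinesin of the dividing midzone, was at 208 ± 116 CPM in the epiblast-like class and 120 ± 94.8 CPM in the other (SD; log2 ratio 0.79), and shares exon sequence with Cdc23. Mki67, the proliferation marker that coats mitotic chromosomes, was at 146 ± 110 and 220.5 ± 172 CPM (SD; log2 ratio -0.59).

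Ccnb1, the main cyclin of mitotic entry, ran from 54.5 through 557 to 1239 CPM in epiblast-like cells and from 0 through 246 to 1189 CPM in mesoderm-like cells, with 2 mesoderm-like cells at 0. Its mean was higher in epiblast-like cells (571 ± 303 against 348 ± 308 CPM, SD; log2 ratio 0.71), with tops that nearly met. Top2a went the other way, with 0.483 to 1614 CPM and a median of 384 in epiblast-like cells, and 6.29 to 1729 CPM and a median of 659 in mesoderm-like cells (log2 ratio -0.46), and it shares exon sequence with Gm23451. The B-type cyclin gene and the topoisomerase gene thus leaned to different classes, both within overlapping ranges.

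Cdc20 ran from 119 through 452 to 1511 CPM and from 39.5 through 601.5 to 1500 CPM in epiblast-like and mesoderm-like cells. Per exon length it was the most abundant G2/M gene (303 RPKM over all cells), followed by Ccnb2 (213 RPKM) and Ccnb1 (107 RPKM). Bub1, a kinase of the spindle checkpoint, was at 316 ± 207.5 and 360 ± 321 CPM (SD), with values from 0 to 1037 and from 0 to 1373 CPM. For Cdc20 and Bub1 alike, the difference of means was below 1 SD.

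**Figure D1:**
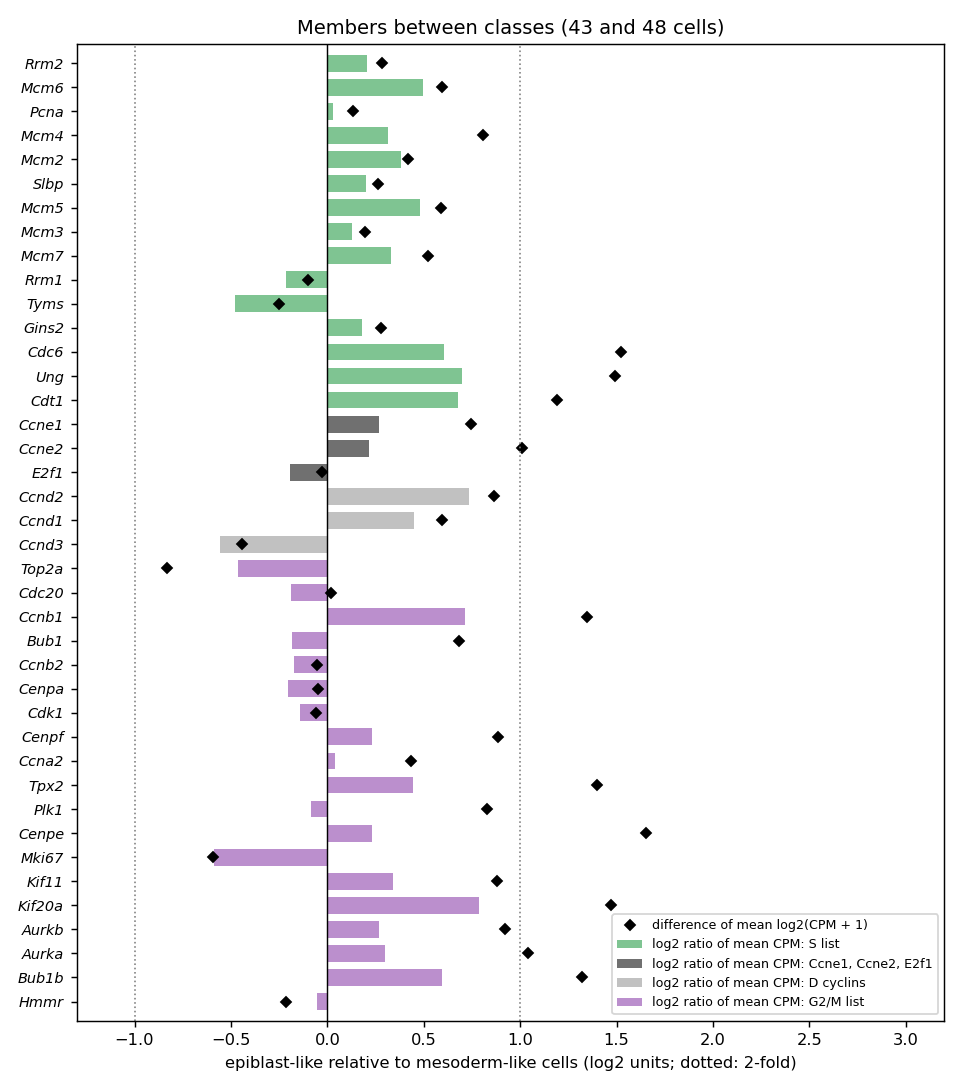
Each of the 40 genes between 43 epiblast-like and 48 mesoderm-like cells, in log2 units: coloured bars give log2 ratios of mean CPM and black diamonds the difference of mean log2(CPM + 1), with dotted lines at 2-fold. No bar reaches 2-fold, the bars run from -0.59 (Mki67) to 0.79 (Kif20a), and 10 diamonds lie past the right dotted line.

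The classes also differed in how evenly cells held these transcripts. The coefficient of variation over cells was larger in mesoderm-like cells for 37 of the 40 genes (92.5%), against 70.1% of those 7834 genes. On the log scale, where low cells weigh more, 10 of the 40 genes had a mean log2(CPM + 1) at least 1 higher in epiblast-like cells and 0 in mesoderm-like cells. All measured genes passed this rule in 7.83% and 4.02% of cases, and the 7834 genes in 14% and 5.95%. The 10 were Cdc6, Ung and Cdt1 of the S list, Ccne2, and Cenpe, Kif20a, Tpx2, Ccnb1, Bub1b and Aurka of the G2/M list. The largest difference was 1.65 for Cenpe, a kinetochore motor with 3 epiblast-like and 11 mesoderm-like cells at 0 reads, whose means in CPM differed by a log2 ratio of 0.23 alone.

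Gaps in detection followed the same order. S genes had no reads in 15 of 645 gene and cell pairs (2.33%) in epiblast-like cells and in 38 of 720 (5.28%) in mesoderm-like cells. G2/M genes had none in 34 of 817 (4.16%) and 86 of 912 (9.43%). After every cell was thinned to 500000 counts, these shares were 2.64% and 5.83% for the S list, and 5.26% and 11.7% for the G2/M list. Epiblast-like cells had reads in a median of 8172 genes and mesoderm-like cells in 7836, and the part of this difference in the gaps was not tested.

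Both per-cell scores were higher on average in epiblast-like cells and spread more widely in mesoderm-like cells. A score is the mean log2(CPM + 1) over the genes of a list. The S score was 8.04 ± 0.49 (SD, n = 43 cells; 6.92 to 8.88) in epiblast-like and 7.51 ± 0.80 (SD, n = 48 cells; 5.71 to 8.77) in mesoderm-like cells, a difference of 0.53, or 0.54 after thinning. The G2/M score was 7.23 ± 0.78 (5.57 to 8.37) and 6.65 ± 1.34 (3.85 to 8.81), a difference of 0.58, or 0.61 after thinning. Each difference was below the SD over mesoderm-like cells, and that in S score was above the SD over epiblast-like cells. The SD in mesoderm-like cells was 1.64 times that in epiblast-like cells for the S score and 1.71 times for the G2/M score.

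The distributions differed mostly at the low end. Of the 48 mesoderm-like cells, 13 lay below the lowest epiblast-like cell in S score and 11 in G2/M score, while 0 and 3 lay above the highest. The size of the mean difference was not the same in the upper and lower plate rows. In rows A to D it was 0.32 for the S score and 0.75 for the G2/M score, and in rows E to H 0.74 and 0.31. Each set of rows holds only a part of the cells, and an effect of plate position was not tested. The direction was the same in both sets of rows. For comparison, the 7834 genes with at least 10 CPM in both classes had a median difference of mean log2(CPM + 1) of 0.20, also higher in epiblast-like cells.

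**Figure D2:**
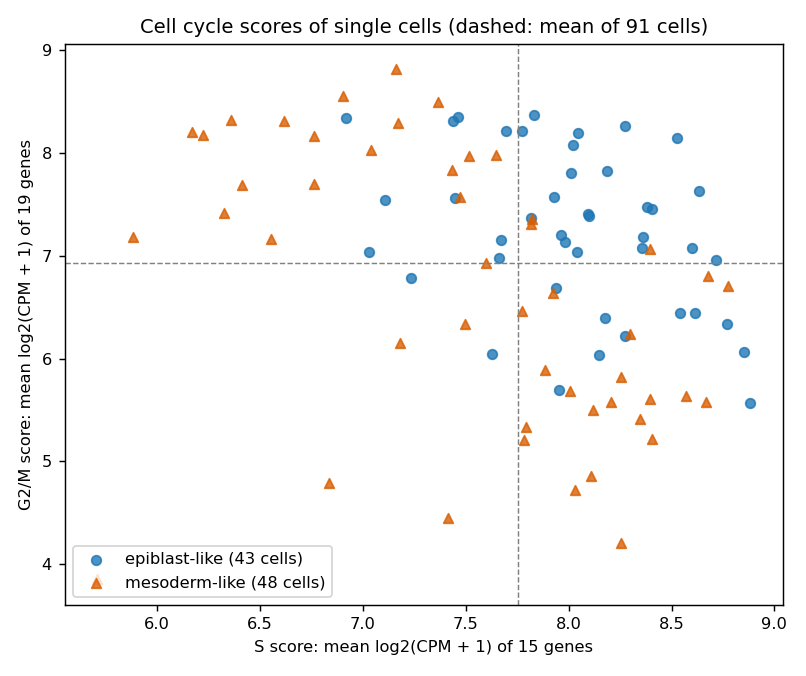
S score (x axis) and G2/M score (y axis) of each cell, in mean log2(CPM + 1), for 43 epiblast-like cells (circles) and 48 mesoderm-like cells (triangles), with dashed lines at the mean of the 91 cells. Mesoderm-like cells fall mostly upper left or lower right, 20 cells in each, while 22 epiblast-like cells lie in the upper right with both scores above the mean.

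The scores were used to place each cell in a range. Both were standardised over the 91 cells, and a cell was put in the S or G2/M range by the larger of its standardised scores, or in the low range where both were at or below 0. These are ranges of a score and not measured phases. The epiblast-like cells comprised 23 in the S range (53.5%, exact 95% binomial interval 37.7 to 68.8%), 18 in the G2/M range (41.9%, 27 to 57.9%) and 2 in the low range (4.65%, 0.568 to 15.8%). In mesoderm-like cells the numbers were 21 (43.75%, 29.5 to 58.8%), 22 (45.8%, 31.4 to 60.8%) and 5 (10.4%, 3.47 to 22.7%). All 3 intervals overlapped between the classes.

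Thinning left 89 of the 91 cells in the same range and gave 23, 18 and 2 epiblast-like and 20, 21 and 7 mesoderm-like cells. A cut lay within 0.25 standardised units of 19 cells. When the scores were standardised within each class, the shares in epiblast-like cells became 37.2% S, 41.9% G2/M and 20.9% low, so that the share in the low range depended on the reference. With all reads and after thinning, the intervals of each share overlapped between the classes, and no interval of a difference was computed.

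How the 2 scores combined in a cell set the classes further apart than the ranges did, in a split made after the values were seen. Both scores were above the mean in 22 of 43 epiblast-like cells (51.2%, exact 95% binomial interval 35.5 to 66.7%), but only in 3 of the 48 mesoderm-like cells (6.25%, 1.31 to 17.2%). Only the S score was above it in 10 epiblast-like (23.3%, 11.8 to 38.6%) and 20 mesoderm-like cells (41.7%, 27.6 to 56.8%), and only the G2/M score in 9 (20.9%, 10.04 to 36%) and 20 cells (41.7%, 27.6 to 56.8%). In mesoderm-like cells high values of one list and low values of the other were thus the usual state. After thinning the shares with both scores above the mean were again 51.2% and 6.25%. With scores standardised within each class they were 20.9% and 16.7%, and with cuts at the median 32.6% and 0%. The latter was 0 of 48 cells, for which 3 of 48 (6.25%) was taken as an approximate upper limit, not an exact binomial one. The contrast between the classes was thus much smaller where each class was its own reference.

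**Figure D3:**
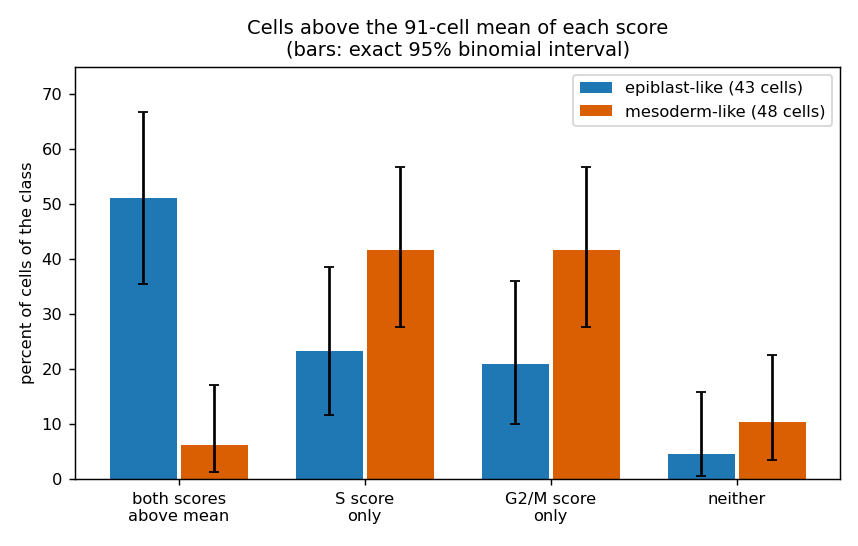
Percent of the cells of each class (y axis) with both scores, the S score only, the G2/M score only or neither above the mean of the 91 cells; bars are shares of 43 epiblast-like and 48 mesoderm-like cells, and error bars the exact 95% binomial interval. The intervals of the first pair of bars, 51.2% and 6.25%, do not overlap, and those of the other 3 pairs do. They cover counting error only and are no test between the classes. The split was made after the values were seen. Its cut is the mean of all cells, and epiblast-like cells had the higher mean in both scores. With scores standardised within each class, the shares of the first pair were 20.9% and 16.7%.

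S and G2/M scores were inversely related over cells. Pearson's r was -0.28 and Spearman's rho -0.40 over all 91 cells. The values were -0.38 and -0.35 in the 43 epiblast-like cells and -0.43 and -0.52 in the 48 mesoderm-like cells. Without the 2 cells farthest from the median S score, r was -0.41, -0.36 and -0.61. The points share 1 plate, and a cell's scores share its total count, so that these values are a description. Total counts were weakly related to the scores (rho -0.17 for S and 0.02 for G2/M over all cells).

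The G2/M score went with the number of genes with reads, members left out, with rho 0.60 over all cells, 0.66 in epiblast-like and 0.52 in mesoderm-like cells. After thinning these were 0.56, 0.65 and 0.45. For the S score the value over all cells was -0.06. Cells in the G2/M range had reads in a median of 8481 other genes in epiblast-like and 8109.5 in mesoderm-like cells, against 8009 and 7669 in the S range. With the share of mitochondrial counts the S score had a rho of -0.38 in epiblast-like and 0.12 in mesoderm-like cells, and the G2/M score had -0.04 and -0.30 with it. The mean mitochondrial share was 3.81 ± 1.21% in epiblast-like and 4.79 ± 1.41% in mesoderm-like cells (SD). The part of these measures in the scores was not tested.

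Genes of a list went together from cell to cell, and genes of opposite lists went apart, in both classes. The median Spearman's rho of CPM over all 91 cells was 0.19 for the 105 pairs within the S list, 0.24 for the 171 pairs within the G2/M list and -0.11 for the 285 pairs between them. For all pairs of the 8652 genes with a mean of at least 10 CPM the median was 0.01. A rho above 0.3 was found in 32.4% of S pairs, in 35.7% of G2/M pairs, in 0.351% of the pairs between lists and in 0.882% of all pairs. Pairs share the cells and their depth, and no p is given.

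The pattern was tighter in mesoderm-like cells. There the medians were 0.25 within the S list, 0.34 within the G2/M list and -0.18 between them, against 0.11, 0.18 and -0.11 in epiblast-like cells. The share of G2/M pairs above 0.3 was 56.7% in mesoderm-like and 26.9% in epiblast-like cells. Among all pairs of genes the order was the opposite, 2.83% and 3.62%, with 48 and 43 cells. Whether the wider spread of the scores accounts for this was not tested.

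**Figure D4:**
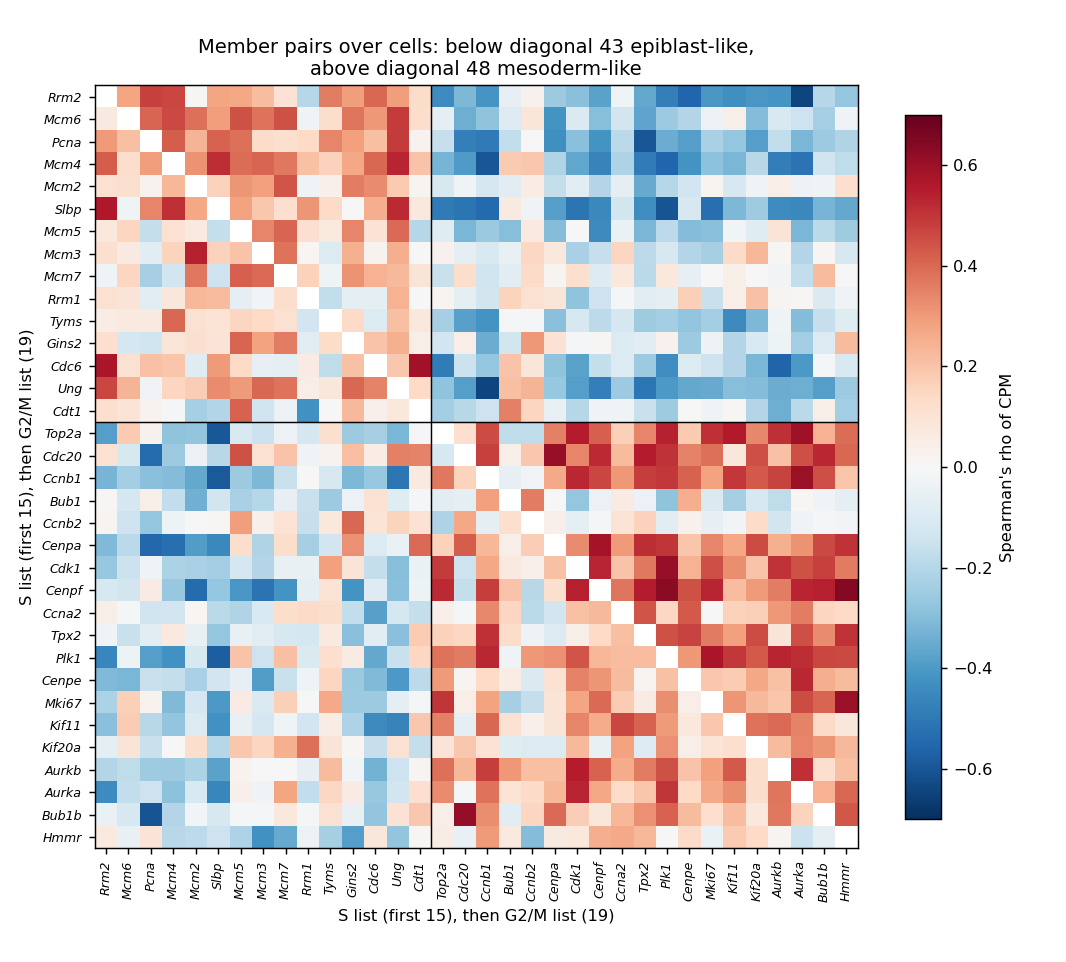
Spearman's rho of CPM for each pair of the 15 S genes and 19 G2/M genes, with 43 epiblast-like cells below and 48 mesoderm-like cells above the diagonal and black lines between the lists; genes are ordered by mean CPM within a list. Red blocks (positive) hold pairs of one list and the blue blocks (negative) pairs across lists, with stronger colours above the diagonal and pale rows at Bub1 and Ccnb2.

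The pairs with the highest rho were picked over all cells, so that their sign within each class is partly set by the choice. In the S list they were Mcm4 with Slbp, which binds histone mRNA (0.52 over all, 0.51 in epiblast-like and 0.52 in mesoderm-like cells), and Cdc6 with Rrm2 (0.48, 0.57 and 0.40). In the G2/M list they were Cdk1 with Plk1, the mitotic kinase (0.55, 0.44 and 0.61), and Ccnb1 with Aurka, a spindle pole kinase (0.53, 0.38 and 0.60). The lowest value of all was that of Slbp with Plk1 (-0.60 over all, -0.58 and -0.61 within the classes). Plk1 shares exon sequence with Gm44985 and Slbp with Gm10459.

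Most members followed their own list. Each member was set against both scores with the gene itself left out. Over all cells, 14 of 15 S genes were closer to the S score, and 17 of 19 G2/M genes to the G2/M score. Of the 7386 other genes described further below, 42.4% were closer to the S score and 57.6% to the G2/M score. Closer means only the larger signed rho, so that Tyms counts among the 14 with a rho of 0.03. Among the members, the highest values on the G2/M side were 0.71 for Ccnb1, 0.65 for Plk1 and 0.65 for Cenpf, a kinetochore protein. On the S side they were 0.56 for Ung and 0.55 for Mcm4. Slbp had the most negative value of the S genes with the G2/M score (-0.59), larger in size than its value with the S score (0.37). The same order of sizes held for Rrm2 (-0.50 and 0.48), Pcna (-0.40 and 0.33) and Tyms (-0.23 and 0.03).

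Over all cells, a few genes did not follow their list. Ccnb2 and Bub1 had a rho with the G2/M score of -0.04 and -0.02, and with the S score of 0.15 and 0.04. Both had reads in nearly all cells, Ccnb2 in 91 and Bub1 in 42 of 43 and 44 of 48. Both also held CHR and CCAAT letters in the promoter table, as the Ccnb2 sequence above shows. Rrm1 and Tyms had a rho with the S score of -0.08 and 0.03. Tyms differed between the classes in its value with the G2/M score, which was 0.17 in epiblast-like and -0.40 in mesoderm-like cells. Within epiblast-like cells further members were near 0. With the S score Pcna had 0.10 and Cdt1 0.07, against 0.52 and 0.35 in mesoderm-like cells. With the G2/M score Hmmr had 0.06 and Cdc20 0.09, against 0.53 and 0.59.

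Cdc20 had the widest gap between the classes of the 19 G2/M genes. Its rho with the G2/M score was 0.09 in the 43 epiblast-like cells and 0.59 in the 48 mesoderm-like cells, and with the S score 0.34 and -0.42. In mesoderm-like cells its mean was 422 CPM in the S range and 772 CPM in the G2/M range, and in epiblast-like cells 568 and 493 CPM. Ccnb1, by contrast, was higher in the G2/M range in both, 717 against 452 CPM among epiblast-like and 580 against 137 CPM among mesoderm-like cells. Both genes are part of the G2/M score, which fixes some of these differences, so that they are descriptions. Cdc20 shares exon sequence with Elovl1.

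**Figure D5:**
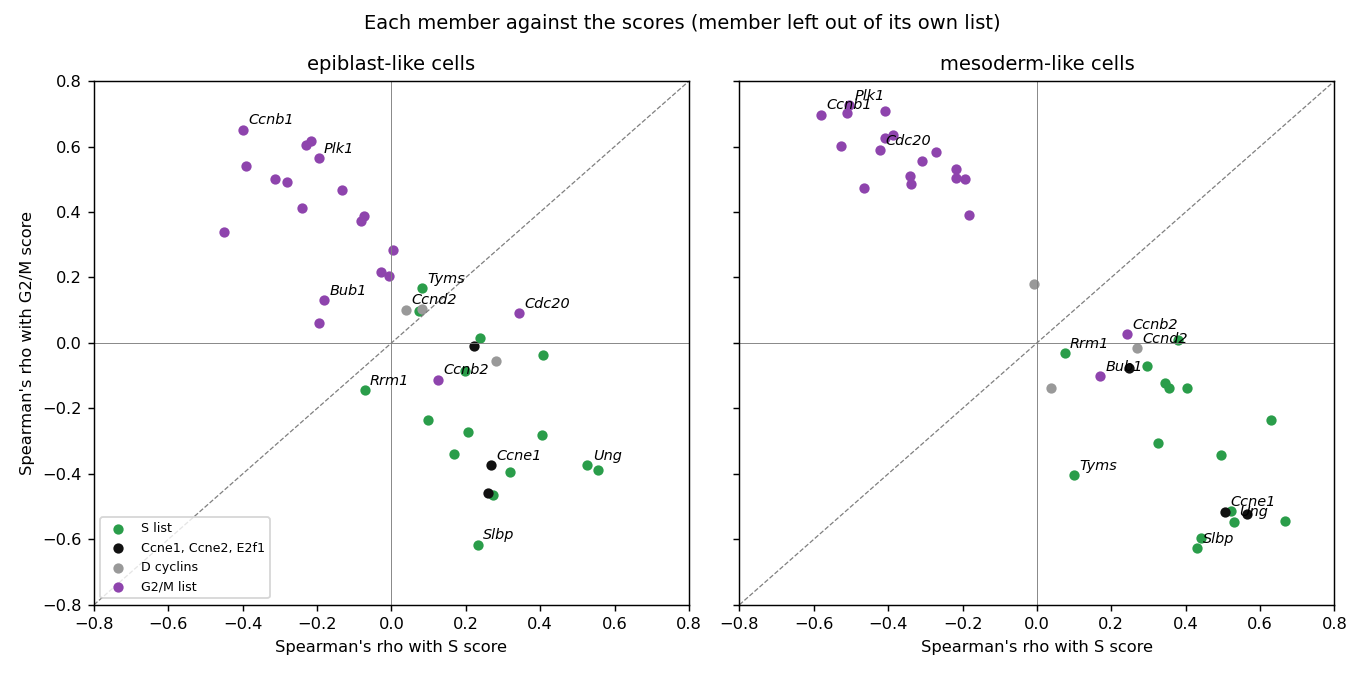
Spearman's rho of each of the 40 genes with the S score (x axis) and G2/M score (y axis), the gene left out of its own list, in epiblast-like cells (left) and mesoderm-like cells (right), coloured by list; the dashed line marks equal values. G2/M genes gather upper left and S genes lower right, with a wider gap in mesoderm-like cells, where Ccnb2 and Bub1 stay apart from their list and Cdc20 joins it.

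The E cyclins, which drive entry into S phase and were not part of either score, went with the S genes. Ccne1 had a rho of 0.45 with the S score and -0.43 with the G2/M score over all cells, and Ccne2 of 0.46 and -0.49. Ccne1 ran from 38.65 through 272.5 to 878 CPM in epiblast-like cells and from 0 through 177 to 896 CPM in mesoderm-like cells. In mesoderm-like cells its mean was 383 CPM in the S range and 131 CPM in the G2/M range, with 373 and 247.5 CPM in epiblast-like cells.

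Ccne2 ran from 2.67 through 205 to 1141 CPM and from 0 through 165 to 850 CPM, and its means by range were 320 and 170 CPM in epiblast-like cells and 342 and 76.8 CPM in mesoderm-like cells. The ratio between ranges was thus wider in mesoderm-like cells for both E cyclins (log2 G2/M over S of -1.54 and -2.14, against -0.59 and -0.91). Ccne2 shares exon sequence with Ints8. E2f1, an activating E2F factor, had reads in 21 of 43 and 21 of 48 cells, with means of 15.4 ± 29.2 and 17.8 ± 36.8 CPM (SD) and a median of 0 CPM in both, and its rho with the S score was 0.24. Among the 40 it was the gene lowest per exon length, at 5.28 RPKM.

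The D cyclins, which link growth signals to the cycle, did not move together between the classes or the ranges. Ccnd2 ran from 222 through 766 to 2073 CPM in epiblast-like cells and from 23.2 through 429 to 1100 CPM in mesoderm-like cells, with means of 823 ± 317 and 494 ± 246 CPM (SD; log2 ratio 0.74). Its means in the S and G2/M ranges were 813 and 836 CPM for epiblast-like and 532 and 451 CPM for mesoderm-like cells. Ccnd1 was at 237 ± 127.5 and 174 ± 132 CPM (SD; log2 ratio 0.45), with 1 cell of each class at 0. Ccnd3 had the higher mean in mesoderm-like cells (83.6 ± 69.996 against 123 ± 128 CPM, SD; log2 ratio -0.56). Its means in the S and G2/M ranges were 99.0 and 68.5 CPM for epiblast-like and 98.3 and 150 CPM for mesoderm-like cells, so that the order of the ranges differed by class. None reached 2-fold, and the ranges of all 3 overlapped.

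With the G2/M score the D cyclins had a rho of 0.02 to 0.12 over all cells. With the S score Ccnd2 had 0.30 over all cells, and 0.04 in epiblast-like and 0.27 in mesoderm-like cells. All 3 share exon sequence with other annotated genes. Per exon length, Ccnd2 (69 RPKM over all cells) was ahead of Ccnd1 (43.2 RPKM) and Ccnd3 (11.9 RPKM).

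Outside the 40 genes, Ube2c and Cks2 led those closest to the G2/M score, and the others named here were on no cell cycle list used. Of 7386 other genes detected in 50% of the cells or more, those with the highest rho included Ube2c (0.76), which adds ubiquitin with the anaphase-promoting complex, Cks2 (0.63), a subunit of Cdk complexes, Jpt1 (0.59), Gm12856, Arl6ip1, Kpna2, Plk-ps1, Gm9540 and Gm10184 (0.55). The median of the 7386 was 0.05. Gm12856, Plk-ps1 and Gm9540 are annotated as processed pseudogenes at means below 8 CPM, whose reads may come from a parent gene. Ube2c had a mean of 194 ± 154 CPM among epiblast-like and 198 ± 193 CPM among mesoderm-like cells (SD), so that its spread over cells came with no difference in mean.

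Partners of the S score were weaker. The 10 highest were Gm48455 (0.53), Gm9577, Rpa2, a subunit of the single-strand DNA binding complex (0.46), Hells, a chromatin remodeller of replicating cells (0.43), Hspa5, Ctsb, Bnip3, Gm9247, Apoe and Ppme1 (0.42), and the median of the 7386 was 0.01. Bnip3 and Apoe were also far higher in epiblast-like cells (log2 ratios 2.98 and 2.66). Their rho within the classes was lower, 0.09 in epiblast-like and 0.41 in mesoderm-like cells for Bnip3 and 0.30 in both for Apoe. Gm48455, Gm9577 and Gm9247 are processed pseudogenes.

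Since 57.6% of the 7386 genes were closer to the G2/M score and 42.4% to the S score, counts of further genes are read against these shares. Of 29 further mitosis genes, 28 were measured, 0 were 2-fold different between the classes, and 27 were closer to the G2/M score. The median rho of those measured was 0.32 with the G2/M score and -0.10 with the S score. Of 25 further genes of origins and forks, 18 were closer to the S score, and 2 passed 2-fold toward epiblast-like cells. The share that did was 8.18% of all measured genes, and 3.24% of those with a mean of at least 10 CPM in both classes. The 2 were Orc2, an origin recognition subunit (180.5 against 75.6 CPM), and Pola1, the catalytic subunit of polymerase alpha (99.1 against 40.9 CPM). Both had means above 10 CPM in both classes. Of 14 genes of the anaphase-promoting complex and its regulators, 11 were closer to the G2/M score, with a median rho of 0.09 against 0.05 over the 7386 genes, and 0 were 2-fold different. Among 12 further Cdk genes and regulators, 8 were closer to the G2/M score. Of these 12, 1 was 2-fold different, Ccna1, a share close to the 8.18% of all measured genes. Ccna1 was higher in epiblast-like cells and had reads in few cells.

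Among genes that brake the cycle, some were not detected. Of 7 Cdk inhibitor genes, 4 were measured and 0 were 2-fold different. Cdkn2a and Cdkn2b had 0 reads in the 91 cells. Cdkn1a, the p21 gene, was at 98.2 ± 101 and 98.0 ± 136 CPM (SD), and Cdkn1c, the p57 gene, at 23.6 ± 36.1 and 40.8 ± 43.5 CPM (SD). Their spread over cells was as large as the means or larger. Of 12 pocket protein and E2F genes, all were measured and 1 was 2-fold different, E2f2 (9.02 against 1.87 CPM), which had reads in 12 of 43 epiblast-like cells. This share is close to the 8.18% of all measured genes that passed 2-fold toward epiblast-like cells.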

How the data were processed

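Single cells were sequenced by Smart-seq2. The authors aligned the reads to GRCm38 (mm10) with HISAT2 and counted them per gene with featureCounts, and the deposited values are these raw counts for 91 cells and 53379 genes. Tool versions, gene annotation and strandedness were not given in the sources used here. Symbols matched 53274 identifiers. Counts were scaled to 1000000 per cell (CPM), and RPKM used exon lengths of GENCODE M21. All cells are 1 group, from 1 pool.

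Genes with reads in at least 3 cells were called measured. Folds are ratios of mean CPM with 1 CPM added, and a gene was called 2-fold different at a ratio of 2. Scores are mean log2(CPM + 1), phase ranges use scores standardised over 91 cells, and correlations are Spearman's on CPM unless said. Each cell was also thinned to 500000 counts, which 0 cells were under. Intervals are Clopper-Pearson at 95%. Since Smart-seq2 reads carry no molecular identifiers, several can come from a single molecule, and intervals cover counting error only. No doublet caller was run, since each well was sorted to hold 1 cell. No cell was removed. The steps were tested on simulated data with known folds and phases. There the 2-fold call passed 46% of 50 genes with a true fold of 2, and 100% of 50 with a true fold of 4. It also passed 4.04% of unchanged genes with a mean of at least 10 CPM. A gene with a true fold close to 2 can therefore be missed by the call. With a true fold of 3 between phases, 100% of 91 cells fell in their own range. Only S and G2/M cells were simulated there, and every gene of a list was raised alike. The data differ from this setting. Between the ranges, the log2 ratio of G2/M over S ran from -1.77 (Cdc6) to -0.05 (Rrm1) in the S list. In the G2/M list it ran from -0.12 (Ccnb2) to 1.47 (Cenpe). How well real cells are placed was not tested. The software was Python 3.11.15, with pandas 2.3.3, scipy 1.17.1, numpy 2.4.6 and matplotlib 3.10.9.

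The members and lists were chosen with earlier results of these data known. Genes named are, of each role, the 4 with the highest mean CPM (all of the D and E cyclins and E2f1), the 2 pairs of highest correlation in each list, the 10 genes outside the members closest to each score (1 of them is not reported here), and members of other lists past 2-fold that were detected in 50% or more of the cells of the higher class. Others were named after their values were seen, as extremes or members of a small count. Alternatives were another scaling, other pseudocounts, thinning, classes from marker scores, upper and lower plate rows, other cuts and other correlation measures.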

Additional observations from a re-analysis of the deposited data

How the results depend on the processing

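Of 119 values recomputed under alternative settings for 18 results, 108 stayed within the limits set for them (1 SD over cells, the 95% interval of a share, 0.1 in a correlation or 1.5 times a count), 11 moved and 0 changed sign. Shares, counts and the ratio of SDs cannot be negative, so that only score differences and correlations could change sign. For the differences in S and G2/M score (0.53 and 0.58), 1 SD over cells was larger than the difference. A fall to 0 would therefore have stayed within that limit. The filter on detection kept all 15 S and 19 G2/M genes, so that its values could not differ. Leaving out the filter on low counts could not change a count either, since all 40 members passed it. The count of 108 includes these values and is no measure of stability for them. With scores standardised within each class, the share of epiblast-like cells was 37.2% in the S range and 20.9% in the low range, and 20.9% had both scores above the mean. With cuts at the median, 22.9% of mesoderm-like cells were in the low range, and both scores were above the cut in 32.6% of epiblast-like and 0% of mesoderm-like cells. With a pseudocount of 10 CPM, that share in mesoderm-like cells was also 0% (0 of 48). The correlation of the scores was -0.28, and it was -0.40 by Spearman, -0.43 within mesoderm-like cells and -0.41 without the 2 farthest cells. By the difference of means of log2(CPM + 1), 10 members passed in epiblast-like cells, since low cells weigh more there. Other causes were not tested.

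The differences in S and G2/M score ranged from 0.32 to 0.74 and from 0.31 to 0.78. Without 3 cells in doubt (an epiblast-like cell whose markers pointed to mesoderm, the cell with endoderm markers and the cell of lowest depth) they were 0.57 and 0.56, and the shares with both scores above the mean were 52.4% and 6.52%. Those 3 cells, and the settings for the shares with both scores above the mean and for the ratio of SDs (1.56 to 1.73), were chosen after seeing the data. No paired analysis was possible because the cells belong to 1 group and carry no shared replicate numbers. With 1 pool of cells, variation between embryos cannot be told apart from that between cells, and counts from reads without identifiers limit low genes such as E2f1 most.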
